A study of Rattus norvegicus with 15 samples.

Results

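Apolipoproteins are the protein parts of plasma lipoproteins, and the liver makes most of them. This account covers 10 of their genes, those of the A, B, C, E and F families that were listed by symbol: Apoa1, Apoa2, Apoa4, Apoa5, Apob, Apoc1, Apoc2, Apoc3, Apoe and Apof. All 10 were found among the 21576 genes of the deposited liver table, and all 10 passed the filter on low counts. RNA of male Sprague-Dawley rat liver had been sequenced in 3 groups of 5 libraries. ZXD rats ate a lipid-raising feed for 4 weeks and then received Zexie Decoction, a herbal preparation of Alisma and Atractylodes rhizomes, at 2.2 g per kg per day by mouth for 4 more weeks. HFD rats ate the same feed and were given saline in place of the decoction. CON rats ate normal chow. The feed of ZXD and HFD rats held 66% base forage, 16.7% sucrose, 8.3% yolk, 7% lard, 2% cholesterol, 0.3% sodium cholate (a bile salt) and 0.2% propylthiouracil, which blocks thyroid hormone synthesis, so HFD against CON compares the whole mixture with chow. The labels name 10 rats a group and 1 strain, give no age, and do not say which rat each library came from. P-values therefore measure the spread between these libraries, which may be technical if any share an animal.

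Apolipoproteins hold the lipid of a particle together, bind the receptors that clear it and act on the enzymes that change it. Apob is the non-exchangeable scaffold of very-low-density and low-density lipoproteins, and Apoa1 and Apoa2 are the main proteins of high-density lipoprotein. Apoe is the ligand through which remnant particles are taken up. Apoc2 activates lipoprotein lipase, Apoc3 hinders the lipolysis and uptake of triglyceride-rich particles, Apoa5 promotes their lipolysis, and Apoc1 slows their uptake. Apoa4 travels on chylomicrons and high-density lipoprotein and is made by gut as well as liver in rats. Apof is a minor secreted apolipoprotein known from human plasma as an inhibitor of lipid transfer.

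Libraries held 12552449 to 14228052 counts, and the 10 genes took 2.11% to 3.77% of them. The decoction library ZXD 4 stood apart: its 10 genes took 2.11% of counts, albumin took 1.76% against 2.96% to 9.22% in the other 14 libraries, and its TMM factor (the scale that corrects library size for composition) was 1.28 against 0.793 to 1.13. Hepatocyte markers were abundant in every group, with a summed level of 87340 to 125600 CPM (counts scaled to library size) in ZXD, 101700 to 140800 CPM in HFD and 191000 to 234600 CPM in CON. Of 14 hepatocyte markers, 5 were lower in HFD than in CON. Of all 13163 tested genes, 10.9% were called lower and 10% higher in this comparison (edgeR adjusted p under 0.05). Marker calls and sums hold relative to the TMM scale. Of 24 macrophage and Kupffer cell markers, 9 were higher in HFD than in CON and 0 lower, and their summed level was 1264 to 8578 CPM in ZXD, 846 to 4490 CPM in HFD and 471.5 to 1217 CPM in CON. Of 12 tested T, B and NK cell markers, 6 were higher in HFD than in CON (summed 42.88 to 168.3 CPM in ZXD, 31.22 to 96.11 CPM in HFD and 13.88 to 38.31 CPM in CON), as were 4 of 8 cholangiocyte markers (103.3 to 207.4 CPM in ZXD, 110.2 to 208.5 CPM in HFD and 50.46 to 67.65 CPM in CON). Of 9 tested stellate cell and fibroblast markers 1 was lower. None of 8 sinusoidal endothelial markers was called, but their sum, 458.4 to 613 CPM in ZXD, lay wholly above that in HFD, 90.1 to 376.7 CPM, with 92.24 to 379.7 CPM in CON. The part of these cell types in the results below was not tested beyond an alternative fit with a macrophage marker score as a covariate. That score differed between groups, so the fit cannot tell its part from that of the feed. In whole liver RNA, fewer cells of a type and less RNA per cell cannot be told apart.

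Most of these genes sit in 2 tight neighbourhoods of the deposited table. Apoa1, Apoc3, Apoa4 and Apoa5 lie within 36.3 kb with no other gene of the table between them, Apoc3 on the opposite strand. Apoe, Apoc1, Apoc4 and Apoc2 lie within 28.3 kb on 1 strand. Apof lies beside Apon, another apolipoprotein gene, within 15.1 kb. The table names no genome build, so only distances are given. For 6 of the 10 genes a promoter window from RefSeq (build GRCr8, 250 bases before to 50 after a start) was at hand. No window was used for Apoa1, Apoa2, Apob and Apoc3. The windows below are those of the 3 genes with lower RNA in HFD livers that had one, Apoa4, Apof and Apoc2, and of Apoa5, the neighbour of Apoa4 that was not called; each is printed 5′ to 3′ on the gene's own strand, and capitals mark every match to 1 of 7 motifs. Apoa4 is chr8:55435529-55435828 on the plus strand, Apoa5 is chr8:55457621-55457920 on the plus strand (the first of its windows), Apof is chr7:1284972-1285271 on the plus strand and Apoc2 is chr1:88462316-88462615 on the minus strand.
Apoa4: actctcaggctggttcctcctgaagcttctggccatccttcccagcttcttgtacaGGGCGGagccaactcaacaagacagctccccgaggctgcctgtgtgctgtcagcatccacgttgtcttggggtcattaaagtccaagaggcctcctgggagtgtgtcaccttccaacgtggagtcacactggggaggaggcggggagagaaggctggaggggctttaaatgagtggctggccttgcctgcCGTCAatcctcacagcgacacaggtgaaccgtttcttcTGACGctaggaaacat
Apoa5: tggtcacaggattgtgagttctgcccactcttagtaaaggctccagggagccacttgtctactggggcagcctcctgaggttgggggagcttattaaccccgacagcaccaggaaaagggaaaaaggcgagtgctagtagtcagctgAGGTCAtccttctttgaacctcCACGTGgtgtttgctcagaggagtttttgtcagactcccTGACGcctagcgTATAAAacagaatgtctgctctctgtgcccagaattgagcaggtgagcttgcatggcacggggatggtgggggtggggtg
Apof: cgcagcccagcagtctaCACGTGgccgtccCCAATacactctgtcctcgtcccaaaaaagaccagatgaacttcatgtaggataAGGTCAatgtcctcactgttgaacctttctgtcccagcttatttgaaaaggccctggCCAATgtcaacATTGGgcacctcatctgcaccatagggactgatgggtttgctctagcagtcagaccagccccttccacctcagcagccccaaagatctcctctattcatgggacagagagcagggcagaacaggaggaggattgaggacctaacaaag
Apoc2: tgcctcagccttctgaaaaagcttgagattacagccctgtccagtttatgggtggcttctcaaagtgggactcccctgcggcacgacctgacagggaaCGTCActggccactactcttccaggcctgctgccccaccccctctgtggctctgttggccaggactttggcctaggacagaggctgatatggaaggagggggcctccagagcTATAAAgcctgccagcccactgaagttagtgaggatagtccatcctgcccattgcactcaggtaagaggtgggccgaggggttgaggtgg
The motifs, searched on both strands, were the core promoter box TATAAA (in 14.2% of all 33469 windows), the nuclear receptor half-site AGGTCA (16.2%), the E-box CACGTG (6.42%), the CREB half-site TGACG (21.2%), the CCAAT box (37.5%), the GC box GGGCGG (33.1%) and the HNF4A-selective core CAAAGTCCA (0.391%). No 2 of them overlapped in the printed windows. The Apoa4 window held a GC box 194 bases before the start and CREB half-sites 4 bases before and 35 bases into the transcript, and no TATAAA. The Apoa5 window, from the same neighbourhood, held a core promoter box 30, a CREB half-site 42, an E-box 81 and a nuclear receptor half-site 103 bases before the start. The Apof window had 3 CCAAT boxes, 1 nuclear receptor half-site and 1 E-box, and the Apoc2 window had a core promoter box 40 bases before the start and 1 CREB half-site. The letters of the HNF4A-selective core were in none of the 10 windows of these 6 genes, which says nothing of the factor itself. None of the 7 motifs was in all 4 printed windows.

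Levels between genes are given as FPKM, which divides counts by gene length, on the TMM scale. In chow-fed livers the order ran from Apoe at 17320 ± 1620 FPKM (SD, n = 5) over Apoc3 at 6635 ± 983, Apoc1 at 4386 ± 634 and Apoa2 at 2512 ± 298 FPKM to Apoa4, Apoc2, Apoa5 and Apob at 928.5 ± 277, 823.3 ± 88.5, 795.4 ± 191 and 624.9 ± 93.3 FPKM. Apoa1 at 302.4 ± 110 FPKM and Apof at 224.7 ± 50.9 FPKM came last. The ranges of Apoe, Apoc3, Apoc1 and Apoa2 in CON did not overlap one another. Those of the neighbours Apoa4 and Apoc2, Apoc2 and Apoa5, Apoa5 and Apob, and Apoa1 and Apof did. In HFD livers Apoa4, at 30.39 ± 18.7 FPKM, and Apof, at 42.06 ± 14.1 FPKM, were the lowest of the 10, and in ZXD livers likewise at 36.57 ± 12.1 and 68.8 ± 25.2 FPKM. The level of Apoa1 rests on a gene model of 676 bases in the table, and how reads were assigned to it is not given in the sources used here.

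**Figure D1:**
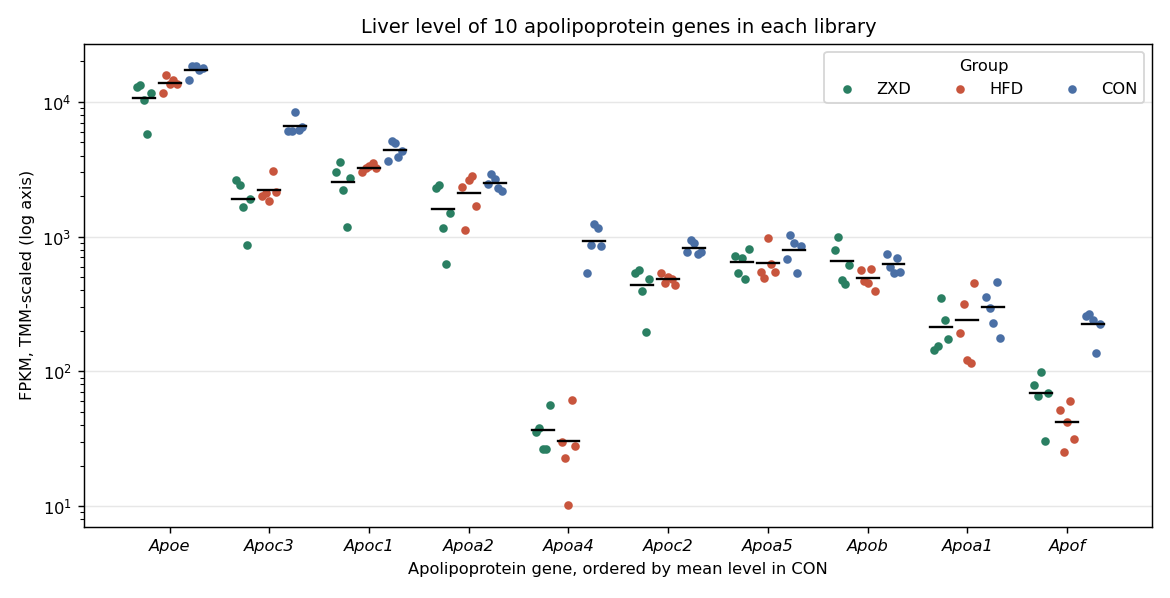
Level of each of the 10 genes in every library, as TMM-scaled FPKM on a log axis; each point is 1 library and each black line the mean of 5. Apoa4, Apoc3, Apoc2, Apof and Apoc1 show ZXD and HFD points all below the CON points, and Apoe the ZXD points, while the groups overlap for Apoa1, Apoa2, Apoa5 and Apob.

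The first question was what the feed did to these genes. Against chow, 4 of the 10 apolipoprotein RNAs fell in HFD livers and 0 rose: Apoa4, Apof, Apoc3 and Apoc2. The other 6 did not pass. Of all 13163 genes tested, 10.9% were called lower and 10% higher in this comparison (edgeR quasi-likelihood test, Benjamini-Hochberg adjusted p under 0.05). The median log2 fold change of the 10 was -0.387, against 0.0184 over all tested genes. With library totals in place of TMM the median of all tested genes became 0.438, and 5390 genes were called higher and 505 lower, so fold changes against CON hold relative to the TMM scale. On library totals 3 members were called lower and 0 higher, and without ZXD 4, which enters the shared estimate of spread, 5 were.

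Apoa4 had the largest change of the 10. It was at 30.12, 22.78, 10.21, 60.85 and 27.97 FPKM in the HFD libraries, against 538.5, 861.7, 1238, 1150 and 854.6 FPKM in the CON libraries. The highest HFD library was far below the lowest CON library. Its fold change was 0.0327, or -4.93 in log2 units (SE 0.435, adjusted p = 5.67e-06 by edgeR). Enterocyte markers, counted because the gut is the other source of Apoa4, summed to 1.871 to 23.74 CPM in ZXD, 2.59 to 15.86 CPM in HFD and 1.448 to 6.936 CPM in CON, with Alpi at 0 in every library.

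Apof came next. It stood at 51.5, 25.34, 41.98, 59.86 and 31.63 FPKM in HFD and at 256.7, 264.6, 239, 137.8 and 225.2 FPKM in CON. All HFD values lay below all CON values, although CON 4 was lower than the other chow livers. The log2 fold change was -2.42 (SE 0.304, edgeR adjusted p = 0.000141).

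Apoc3, the brake on triglyceride clearance, was at 2002, 2104, 1849, 3064 and 2142 FPKM in HFD and at 6058, 6034, 8365, 6237 and 6480 FPKM in CON. The groups did not overlap, with CON 3 highest. Its fold change was 0.336, a log2 value of -1.57 (SE 0.257, edgeR adjusted p = 0.000921). Apoc2, the activator of lipoprotein lipase, had 539.9, 451.7, 505.3, 482.7 and 436.7 FPKM in HFD, against 763.1, 942.2, 893.9, 748.5 and 768.5 FPKM in CON. Every HFD library was again below every CON library, and the log2 fold change was -0.77 (SE 0.217, edgeR adjusted p = 0.0231). This is the call of the 4 that depended on the setting: it was lost on library totals (log2 fold change -0.35, adjusted p = 0.134), with a macrophage marker score as a covariate (-0.42, adjusted p = 0.331), and without CON 2, CON 3, HFD 2 or HFD 5 (adjusted p = 0.0602, 0.0586, 0.0552 and 0.0565).

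The genes of the abundant and structural proteins did not pass in HFD against CON. Apoe had 11740 to 15770 FPKM in HFD (median 13650) and 14570 to 18490 FPKM in CON (median 17970), a log2 fold change of -0.32 (SE 0.213, 95% interval -0.78 to 0.13, edgeR adjusted p = 0.286). Apob, the scaffold of very-low-density lipoprotein, gave -0.34 (95% interval -0.83 to 0.14), Apoa1 -0.34 (-1.15 to 0.48), Apoa2 -0.24 (-0.93 to 0.44) and Apoa5 -0.32 (-0.81 to 0.17). Each of these 5 had a positive log2 fold change on library totals, from 0.077 to 0.17, so the sign of their change depends on the scale. The median of all tested genes was 0.438 on library totals and 0.0184 on TMM, and each of the 5 lay below it on both scales. None of the 5 passed on either. Apoc1 gave -0.43 (-0.92 to 0.058). Its HFD libraries, at 3028 to 3507 FPKM, all lay below its CON libraries, at 3660 to 5129 FPKM. Yet it was called only without ZXD 4 (edgeR adjusted p = 0.0455 against 0.186 with all libraries). All groups share 1 estimate of the spread in these fits. Without ZXD 4 the log2 fold change of Apoc1 was again -0.43, with an SE of 0.146 against 0.229 with all libraries. With only the 2 groups in the fit, where no ZXD library enters, Apoc1 narrowly missed the threshold, also with a smaller SE. Why it missed the threshold was not tested. In all, 5 of the 10 genes had HFD libraries wholly below CON, where 8.46% of all tested genes did and 6.59% lay wholly higher.

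**Figure D2:**
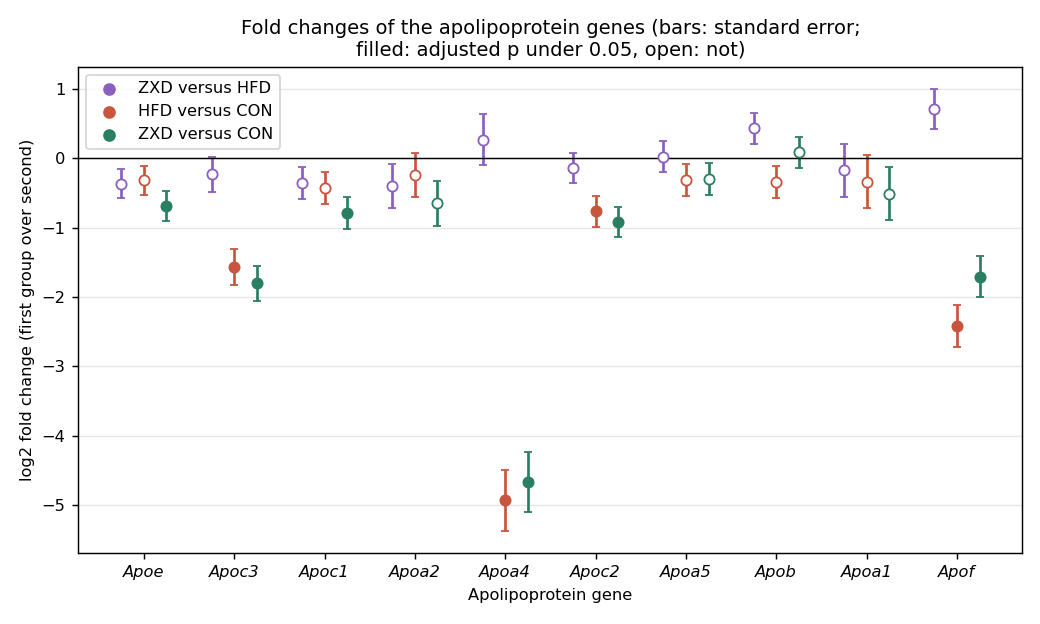
Log2 fold change of each gene in the 3 comparisons, with standard errors; filled points have an edgeR adjusted p under 0.05. Open points alone are seen for ZXD versus HFD, and the lowest points are those of Apoa4 at -4.93 (HFD versus CON) and -4.67 (ZXD versus CON).

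The next question was whether the decoction moved these genes on the feed. In ZXD against HFD livers, 0 of the 10 genes was called in either direction by edgeR, by limma voom or by DESeq2, and 1, Apof, had an unadjusted p under 0.05. Over all 13163 tested genes edgeR called 0% and limma voom 0 genes, while DESeq2 called 342, and 2167 (16.5%) had an unadjusted edgeR p under 0.05. Every member's ZXD range overlapped its HFD range, where 2.14% of all tested genes lay wholly higher in ZXD and 1.53% wholly lower. Apof was at 79.84, 65.4, 99.34, 30.52 and 68.91 FPKM in ZXD, against the 25.34 to 59.86 FPKM of HFD given above. Of the ZXD libraries 4 lay above the highest HFD library and ZXD 4 among the low ones. The log2 fold change was 0.71 (SE 0.291, 95% interval 0.091 to 1.33, edgeR adjusted p = 0.244).

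Apob had 788.9, 986.2, 474, 446.2 and 616.9 FPKM in ZXD, against 567.8, 465.2, 454.6, 576.4 and 397.4 FPKM in HFD. ZXD 1, ZXD 2 and ZXD 5 lay above all HFD libraries and the other two ZXD libraries among them. The log2 fold change was 0.43 (95% interval -0.054 to 0.91, edgeR adjusted p = 0.353). Apoa4 stayed low, with 35.54, 37.69, 26.73, 26.68 and 56.2 FPKM in ZXD and a log2 fold change of 0.27 against HFD (95% interval -0.52 to 1.06). Apoe was at 12880, 13250, 10300, 5750 and 11570 FPKM in ZXD, against 11740, 15770, 13580, 14550 and 13650 FPKM in HFD, with ZXD 4 lowest of all 15 libraries; the log2 fold change was -0.37 (95% interval -0.82 to 0.087). For the other members it lay between -0.41 (Apoa2) and 0.022 (Apoa5). A p that misses the threshold does not show that the decoction left these genes as they were.

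The decoction-treated livers were also set against chow, which shares the ZXD libraries with the comparison above and the CON libraries with the feed comparison. In ZXD livers 6 of the 10 genes were lower than in CON and 0 higher, where 14.8% of all tested genes were called lower and 17.9% higher, and the same 6 had ZXD libraries wholly below CON (9.79% of all tested genes, with 8.2% wholly higher). In log2 units Apoa4 differed by -4.67 (SE 0.43, adjusted p = 9.19e-06 by edgeR), Apoc3 by -1.81 (SE 0.258, adjusted p = 0.000331) and Apof by -1.71 (SE 0.296, adjusted p = 0.00127). Apoc2 gave -0.92 (SE 0.218, edgeR adjusted p = 0.00665). The remaining lower genes were Apoc1 at -0.79 (SE 0.230, edgeR adjusted p = 0.0179) and Apoe at -0.69 (SE 0.214, edgeR adjusted p = 0.0237). The Apoe call was lost on library totals (adjusted p = 0.188), with the replicate number as a block (0.0532), with only the 2 groups in the fit (0.058), with the macrophage score (0.575) and without CON 2, CON 3 or ZXD 3 (0.0516, 0.0546 and 0.0533), and the Apoc1 call on library totals (0.102) and with the macrophage score (0.699). With the macrophage score the Apoc2 and Apof calls were lost too (0.453 and 0.168), and Apoa1 was called at -1.82 (adjusted p = 0.0151). Apob was at 0.084 (95% interval -0.40 to 0.57), turned to -0.12 without ZXD 2, and was called higher on library totals (0.49, edgeR adjusted p = 0.0486). On that scale 6046 of all 13163 tested genes were called higher and 628 lower, with a median log2 fold change of 0.455, so Apob lay near the typical gene.

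Within the Apoa1 neighbourhood the genes did not change alike. The log2 ratio of 2 genes in the same library does not depend on how libraries are scaled, and it was compared for 10 pairs in 3 comparisons. The test was an exact permutation of the libraries (two-sided, 5 against 5), which can give no p below 0.00794, and p-values were adjusted over the 30 tests. All 10 pairs were chosen with earlier results of these data known. Their exact and adjusted p-values therefore only describe the gap between groups and do not measure chance. In HFD against CON the ratio of Apoa4 to Apoa5 differed by -4.77 log2 units, that of Apoa4 to Apoa1 by -4.64 and that of Apoa4 to Apoc3 by -3.52 (exact p = 0.00794 and adjusted p = 0.0216 for each, no overlap of groups). The ratio of Apoc3 to Apoa5 differed by -1.25 (exact p = 0.00794, adjusted p = 0.0216). That of Apoc3 to Apoa1 gave -1.12 with overlapping groups (exact p = 0.0714, adjusted p = 0.126), and that of Apoa1 to Apoa5 -0.13 (exact p = 0.841). By FPKM, there were 0.0621 to 0.527 Apoa4 per Apoa1 in HFD livers and 1.52 to 5.42 in CON livers. The size of these ratios rests on the Apoa1 gene model of 676 bases, and how reads were assigned to it is not given.

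In the Apoe neighbourhood, Apoc2 passed in HFD against CON and Apoe, Apoc1 and Apoc4 did not (edgeR adjusted p = 0.286, 0.186 and 0.0639). Apoc1 was at 0.204 to 0.258 of the Apoe FPKM in HFD livers and at 0.228 to 0.279 in CON livers, and this log2 ratio differed by -0.096 (exact p = 0.262, adjusted p = 0.374). Apoc2 fell relative to Apoc1, by -0.35 log2 units (exact p = 0.00794, adjusted p = 0.0216), while its ratio to Apoe missed the threshold after adjustment (-0.44, exact p = 0.0238, adjusted p = 0.051) and passed it without HFD 1 (-0.54, exact test, adjusted p = 0.0183). Apof and its neighbour Apon were both called lower in HFD against CON, Apof by more (Apon -1.09, edgeR adjusted p = 0.0391). The log2 ratio of Apof to Apon differed by -1.33 in HFD against CON and by 1.2 in ZXD against HFD. Each had no overlap of groups (exact p = 0.00794, adjusted p = 0.0216). In ZXD against CON this ratio differed by -0.13 (exact p = 0.698). Like the other pairs, this one was picked with earlier results of these data known, so its p-values only describe the gap between groups and do not measure chance. Neither gene was called in ZXD against HFD (edgeR adjusted p = 0.244 for Apof and 0.538 for Apon). Apon itself averaged 148.9 ± 67.9 CPM in ZXD, 199.4 ± 71.6 CPM in HFD and 425.5 ± 121 CPM in CON. In ZXD against HFD no other pair passed after adjustment, though that of Apoc2 to Apoc1 did without HFD 1 (0.28, exact test, adjusted p = 0.0183).

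**Figure D3:**
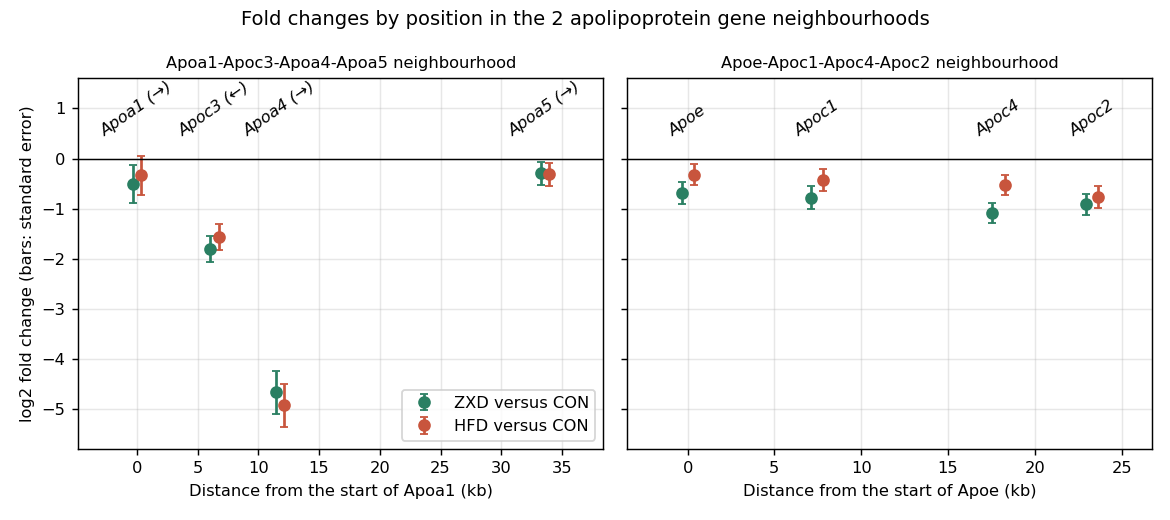
Log2 fold change against CON, with standard errors, by distance in kb from the start of Apoa1 (left, arrows give the strand) or Apoe (right). In the left panel Apoa4 and Apoc3 lie below Apoa1 and Apoa5 on either side of them; in the right panel the 4 genes lie between -0.32 and -1.1.

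Together the 10 genes summed to 18850 ± 5690 FPKM in ZXD, 23390 ± 1790 FPKM in HFD and 34550 ± 3180 FPKM in CON livers (SD, n = 5 each), with no overlap of HFD and CON. Without ZXD 4, whose sum was 9852 FPKM, the ZXD mean was 21100. On the FPKM as deposited, scaled by library totals, the means were 25700 in HFD and 28420 in CON, and the groups then overlapped, at 23750 to 27750 in HFD and 24750 to 31220 in CON. The make-up of the sum does not depend on the scale. Apoe made up 57.3% ± 1.82 of it in ZXD, 59.2% ± 4.08 in HFD and 50.1% ± 1.87 in CON. Apoc3 made up 9.89% ± 0.974 in ZXD, 9.50% ± 1.47 in HFD and 19.2% ± 1.92 in CON, and Apoa4 0.204% ± 0.0669 in ZXD, 0.128% ± 0.0706 in HFD and 2.66% ± 0.672 in CON. The Apob share was 3.58% ± 0.735 in ZXD, 2.11% ± 0.368 in HFD and 1.84% ± 0.441 in CON. The Apoc1 share was 13.3% ± 1.1 in ZXD, 13.9% ± 0.441 in HFD and 12.7% ± 0.882 in CON.

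**Figure D4:**
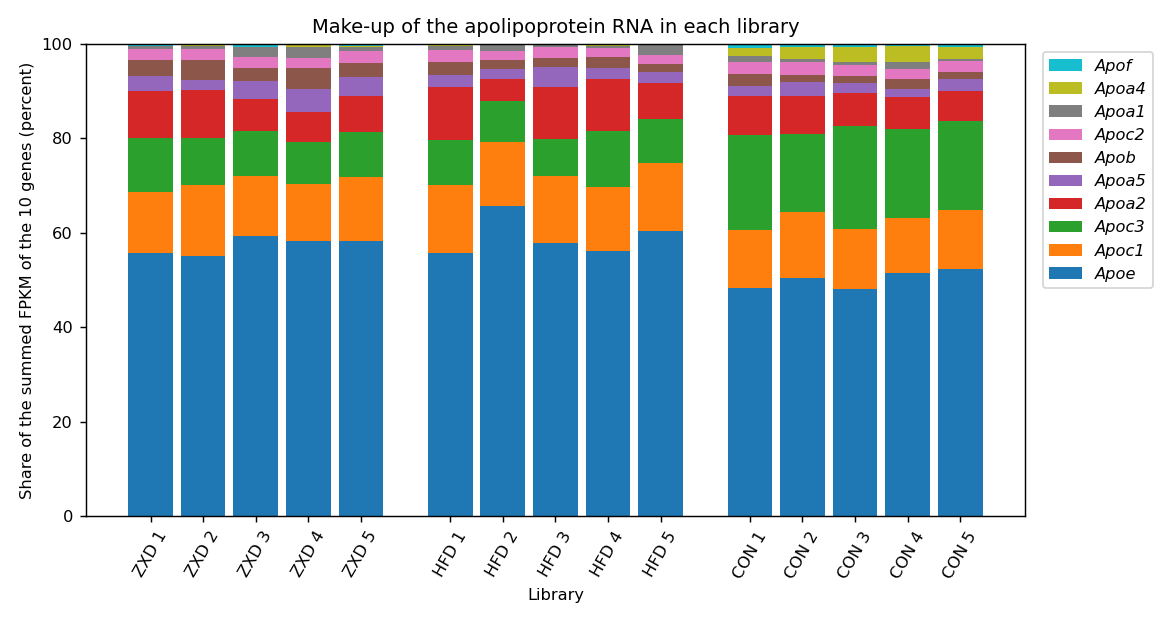
Share of each gene in the summed FPKM of the 10, for every library. The Apoc3 and Apoa4 segments are smaller in all ZXD and HFD bars than in the CON bars, and the Apoe segment is larger in all of them.

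Libraries of 1 group also differed from each other, and in the HFD and ZXD groups Apoa1 and Apoa2 went opposite ways. Apoa1 was at 192.3, 315.1, 122.3, 115.6 and 450.2 FPKM in HFD, highest in HFD 2 and HFD 5, and Apoa2 at 2337, 1128, 2610, 2841 and 1683 FPKM, lowest in the same libraries. The macrophage marker score (the mean over the 24 markers of centred log2 CPM) was 0.0195, 1.16, 0.052, -0.812 and 0.67 in HFD 1 to HFD 5. In ZXD, Apoa1 was highest in ZXD 3 and ZXD 4, at 348.3 and 239.9 FPKM, and Apoa2 lowest there, at 1152 and 626 FPKM, where the score was 1.67 and 1.9 against -0.423 to 0.865 in the other ZXD libraries. In CON, Apoa1 was lowest in CON 3 and CON 5, at 228.2 and 176.9 FPKM, which had the lowest scores, -1.88 and -1.79. With the score as a covariate the log2 fold change of Apoa1 in HFD against CON was -1.28 (edgeR adjusted p = 0.0236) in place of -0.34, and that of Apoa2 was 0.38 (adjusted p = 0.458) in place of -0.24. Since the score itself differed between groups, its part and that of the feed cannot be told apart.

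**Figure D5:**
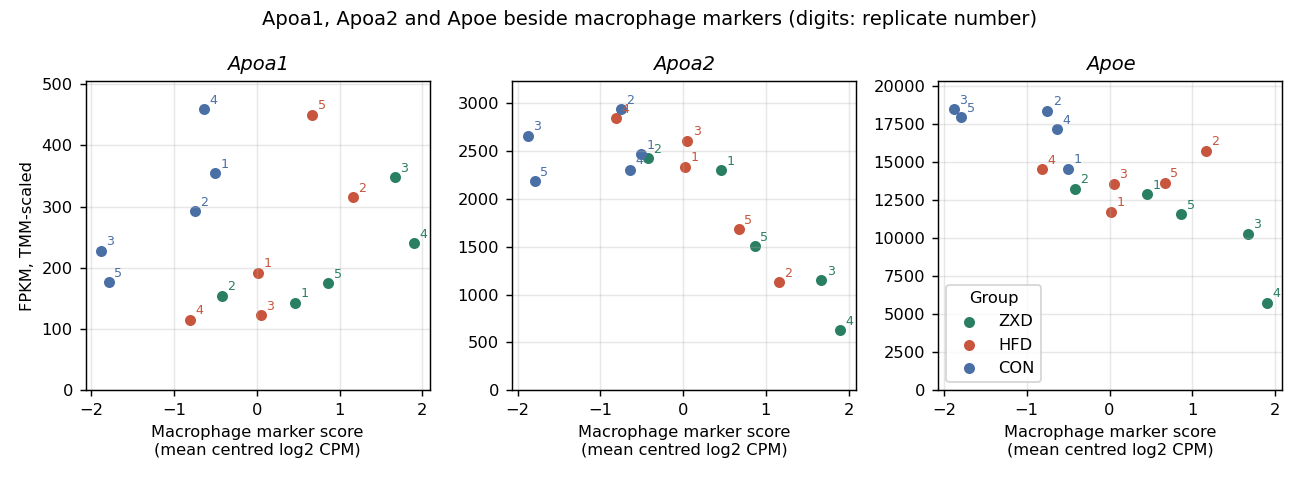
TMM-scaled FPKM of Apoa1, Apoa2 and Apoe in each library beside its macrophage marker score; digits are replicate numbers. ZXD 3 and ZXD 4, and HFD 2 and HFD 5, have the highest scores, the highest Apoa1 and the lowest Apoa2 of their groups, and ZXD 4 has the lowest Apoe.

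Other lipoprotein genes were read from 4 lists, by counts and medians. For HFD against CON, 10% of all 13163 tested genes were called higher and 10.9% lower, with a median log2 fold change of 0.0184. On library totals 5390 genes were called higher and 505 lower, with a median of 0.438. The median of each of the 4 lists lay below that of all tested genes on both scales. Of 17 tested apolipoprotein-named and high-density-lipoprotein-bound genes outside the 10, 6 fell and 1 rose in HFD against CON, with a median log2 fold change of -0.402 that was 0.0206 on library totals, where 3 fell and 6 rose. Pon1, a paraoxonase carried on high-density lipoprotein, had 572 ± 95.8 CPM in HFD and 1290 ± 114 CPM in CON (edgeR adjusted p = 0.00745), Ttr, the thyroxine and retinol carrier transthyretin, 2530 ± 669 CPM in HFD and 6460 ± 1170 CPM in CON (adjusted p = 0.00896), and Apoh 2350 ± 357 CPM in HFD and 4260 ± 253 CPM in CON (adjusted p = 0.0101). Of 20 tested genes of lipoprotein assembly, editing and secretion, 9 fell and 0 rose, with a median of -0.32 that was 0.106 on library totals, where 4 fell and 2 rose. Cideb, a droplet protein of very-low-density lipoprotein maturation, had a log2 fold change of -1.07 (edgeR adjusted p = 0.000265), Tm6sf2, which aids lipidation of the particle, -1.24 (adjusted p = 0.000683) and Dgat2, an enzyme of triglyceride synthesis, -1.18 (adjusted p = 0.00236). Mttp, which loads lipid onto the Apob protein and was named for that role with its values known, averaged 188.6 ± 21.6 CPM in HFD and 319.1 ± 39.1 CPM in CON (log2 fold change -0.76, edgeR adjusted p = 0.00508), while Apob itself did not pass.

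Of 22 tested receptors, lipases and remodelling proteins, 6 fell and 5 rose, with a median of -0.185 (0.236 on library totals). Lpl, the lipase that the Apoc2 protein activates, rose by 5.36 on the log2 scale (adjusted p = 0.000171). Of 27 transcription factors known to act on apolipoprotein genes, 9 fell and 2 rose, with a median of -0.338 (0.0666 on library totals, where 4 fell and 3 rose). Onecut1, the liver factor HNF6, fell to 3.91 ± 3.43 CPM in HFD against 118 ± 35.6 CPM in CON (adjusted p = 7.06e-05), and Srebf2, which drives sterol synthesis genes, had a log2 fold change of -0.92 (adjusted p = 0.000163) and the bile acid receptor gene Nr1h4 one of -1.25 (adjusted p = 0.000687). Hnf4a, an activator of many apolipoprotein genes, and Creb3l3, an activator of Apoa4 in mice, were both named for these roles with values known. Neither passed in HFD against CON, at -0.26 and -0.46 (edgeR adjusted p = 0.457 and 0.196). In ZXD against CON Creb3l3 was called lower (-0.76, edgeR adjusted p = 0.0323) and Hnf4a was not (-0.56, adjusted p = 0.0838). In ZXD against HFD, 0 genes of the 4 lists were called by edgeR.

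For the 4 called members, the genes of most similar pattern over the 15 libraries were taken by the smallest root mean square difference of centred log2 CPM. For Apoa4 these were Idi1, an enzyme of isoprenoid synthesis, Nat8 and Rtn4rl2, at 0.51, 0.62 and 0.712 log2 units, beside 2.38 for the spread of Apoa4 about its own mean. Those of Apoc3 were Cyp39a1, a sterol hydroxylase, Cyp2d3 and Alb, albumin, at 0.175, 0.184 and 0.196. Apoc2 was nearest to F12, coagulation factor XII, Apoh and Ang, at 0.118, 0.134 and 0.141, and Apof to Arhgef26, Hsd17b7 and Fabp1, the liver fatty acid carrier, at 0.44, 0.46 and 0.467. The spreads of Apoc3, Apoc2 and Apof about their own means were 0.908, 0.546 and 1.13 log2 units.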

How the data were processed

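Liver RNA in 15 libraries (5 each of ZXD, HFD and CON, groups and replicate numbers from the titles) was purified with Trizol, per the labels' protocols. The authors deposited read counts and FPKM for 21576 genes, per the file headers; the FPKM equal the count divided by gene length and library total. The submitters' processing notes name edgeR without a role. For the aligner, counter, strand setting, build and annotation nothing is given in the sources used here. The simvastatin group of the labels was not analysed here.

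Counts were scaled by TMM, filtered with filterByExpr (minimum count 10, minimum total 15; 13163 genes kept) and tested with edgeR 4.0.16 in R 4.3.3 (robust quasi-likelihood fit of all 15 libraries, group as the only term), adjusted by Benjamini-Hochberg over all tested genes and called at an adjusted p under 0.05. CPM and FPKM in the text use the TMM-scaled library size; log2 CPM has a prior count of 2. Standard errors are the log2 fold change over the square root of F. A count of 3 was 0.183 to 0.285 CPM, for counting error only, and no member came near it. limma 3.58.1 and DESeq2 1.42.0 were alternatives. The fit was tested on simulated data. Genes named outside the 10 follow a fixed rule (up to 3 called genes a list by adjusted p, 3 genes of most similar pattern for each called member); others are said to be outside it. Some genes the rule takes are not reported here. The members, lists, pairs and rules were chosen with earlier results of these data known. Same-numbered libraries did not deviate together (4 of 15 pairs correlated above 0.1), so replicate numbers were not taken as pairs.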

Additional observations from a re-analysis of the deposited data

Results flagged for a closer look

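Among the 30 sets of 5 libraries that the 10 genes make in 3 groups, 2 held a library far from the other 4, and such a flag arises by chance in about 1 of 20 sets. Apoc3 in CON 3 was at 5440 CPM, against 3930 to 4220 CPM in the other CON libraries. Apof in CON 4 was at 165 CPM, against 270 to 317 CPM in the other CON libraries.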

How the results depend on the processing

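On library totals, the log2 fold changes of Apoa1, Apoa2, Apoa5, Apob and Apoe in HFD against CON were 0.103, 0.173, 0.0921, 0.0774 and 0.096. That of Apoa5 in ZXD against CON was 0.118. The medians of all tested genes were 0.438 in HFD and 0.455 in ZXD, each against CON. On that scale 1 member was called higher in ZXD than in CON, as were 6046 of all 13163 tested genes. With the macrophage score, Apoa2 was at 0.379 in HFD and 0.287 in ZXD, each against CON, and 3 members were called lower in ZXD than in CON. Apoa5 in ZXD against HFD was at -0.00233 with the strict filter and -0.00724 with only the 2 groups in the fit. The deposited FPKM gave summed means of 25700 in HFD and 28420 in CON. On library totals, HFD against CON, 6 other apolipoprotein or high-density-lipoprotein genes were called higher and 3 lower, 2 assembly genes higher and 4 lower, and 4 transcription factors lower. Of all tested genes, 5390 were then called higher and 505 lower. The cause of these moves was not tested.

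Leaving out each library in turn gave log2 fold changes in ZXD against HFD of -0.424 to 0.187 (Apoa1), -0.0673 to 0.233 (Apoa5) and -0.296 to 0.0384 (Apoc2), and in ZXD against CON of -0.124 to 0.197 (Apob). For the log2 ratios, an alternative chosen after seeing the data, Apoa1 to Apoa5 ranged from -0.459 to 0.226 in HFD against CON, -0.455 to 0.23 in ZXD against HFD and -0.434 to 0.076 in ZXD against CON. In ZXD against HFD, Apoa4 to Apoa5 ranged from -0.116 to 0.691, Apoc3 to Apoa1 from -0.546 to 0.0734 and Apoc1 to Apoe from -0.0879 to 0.0117, and Apof to Apon in ZXD against CON from -0.289 to 0.06. The calls of Apoa4, Apoc3 and Apof in HFD against CON passed in all 15 such fits, at adjusted p of at most 5.34e-05, 0.00402 and 0.000676.

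In a fit with a replicate block, 4 members were called lower in HFD against CON, 0 in ZXD against HFD and 5 in ZXD against CON, where Apoe was lost (-0.713, edgeR adjusted p = 0.0532). Same-numbered libraries share only a number: 4 of 15 such pairs correlated above 0.1. Counts of all genes called that moved by over 1.5 times were those on library totals (5895 in HFD and 6674 in ZXD, each against CON, and 2758 and 4299 on TMM), with the macrophage score (936 and 326) and, in HFD against CON, without HFD 2, HFD 5 or CON 3 (1697, 1730 and 1734) or CON 4 (1822). In ZXD against HFD, where edgeR called 0, DESeq2 called 342 genes (212 higher, 130 lower), and edgeR called 7 without HFD 1 and 1 without HFD 3, none of them a member.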

Other observations

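Apob encodes the scaffold of very-low-density lipoprotein and Apoe a ligand for remnant uptake, and the level of 1 relative to the other was read in each group. There were 0.046 to 0.0776 Apob per Apoe by FPKM in ZXD livers (median 0.0613), 0.0291 to 0.0484 in HFD livers (median 0.0335) and 0.0293 to 0.0513 in CON livers (median 0.0323), with overlapping ranges. This ratio was picked after its values were seen and was not tested.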
